A study of Mus musculus with 2 samples.

Results

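The genes described here build and run the mitotic spindle: the cyclins and kinases that start mitosis, the kinetochore and its checkpoint, the spindle motors, the cytokinesis regulators and the condensin subunits. They were listed by symbol, and each was represented by its strongest promoter peak in the deposited ATAC-seq table, a promoter peak being one within 1 kb of a transcription start and the strongest the one with the highest count summed over both libraries. Of 45 listed genes, 39 had a promoter peak of their own, among 14854 genes with such a peak in the whole table. ATAC-seq maps open DNA by the cuts of the Tn5 transposase, here in nuclei from mouse heart at 15 days of age. There was 1 library from Ythdc1flox/flox controls and 1 from mice labelled Ythdc1 CKO, called the knockout here, all on normal chow, and the protein Ythdc1 encodes binds RNA marked with N6-methyladenosine in the nucleus. The Cre driver, the number of animals behind each library, any pooling and the sex of the animals were not stated in the sources used here. With 1 library per genotype there was no replicate check and no test, and every interval below is an exact (Clopper-Pearson) 95% interval for counting error only, of reads that are not independent molecules.

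Mitosis begins when cyclin B with its kinase, supported by Plk1 and the Aurora kinases, drives the cell past the last checkpoint before division. Kinetochores then attach chromosomes to spindle microtubules, the checkpoint proteins delay anaphase until all are attached, and the anaphase-promoting complex removes cyclins and securin. Many promoters of such genes carry CCAAT boxes, which bind NF-Y, and a cell cycle homology region (CHR), through which the DREAM and MuvB complexes repress them in resting cells and activate them before mitosis. In the mouse heart most cardiomyocytes leave the cell cycle soon after birth, while endothelial cells and fibroblasts go on dividing.

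To show the letters under the peaks, RefSeq promoter windows (GRCm38.p6, 250 bases before to 50 after the start, 5′ to 3′ along the gene) are given for genes with low and high ratios. Capitals mark matches to the CHR letters TTTGAA, to the CCAAT box and to E2F letters, which were TTTCCCGC with the variants TTTGGCGC and also TTTCGCGC. Both strands were searched, so a capital run may be the reverse complement of the letters given. The first group holds the genes with the lowest knockout-to-control ratios among those with at least 100 counts and a window in the table, namely Plk1 (chr7:122159185-122159484, plus strand), Spc25 (chr2:69206164-69206463, minus strand), Ect2 (chr3:27153829-27154128, minus strand) and Bub1 (chr2:127831810-127832109, minus strand).
Plk1: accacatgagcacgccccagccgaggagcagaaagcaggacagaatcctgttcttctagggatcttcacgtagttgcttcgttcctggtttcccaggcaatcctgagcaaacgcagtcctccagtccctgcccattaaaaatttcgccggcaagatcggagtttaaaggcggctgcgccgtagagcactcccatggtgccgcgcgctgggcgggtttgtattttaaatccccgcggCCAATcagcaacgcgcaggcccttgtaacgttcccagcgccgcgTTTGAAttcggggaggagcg
Spc25: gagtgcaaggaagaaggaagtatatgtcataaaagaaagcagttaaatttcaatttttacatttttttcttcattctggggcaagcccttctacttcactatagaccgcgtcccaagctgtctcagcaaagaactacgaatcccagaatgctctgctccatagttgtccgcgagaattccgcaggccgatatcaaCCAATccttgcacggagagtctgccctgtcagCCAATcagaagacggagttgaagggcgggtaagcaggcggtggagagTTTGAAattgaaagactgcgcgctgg
Ect2: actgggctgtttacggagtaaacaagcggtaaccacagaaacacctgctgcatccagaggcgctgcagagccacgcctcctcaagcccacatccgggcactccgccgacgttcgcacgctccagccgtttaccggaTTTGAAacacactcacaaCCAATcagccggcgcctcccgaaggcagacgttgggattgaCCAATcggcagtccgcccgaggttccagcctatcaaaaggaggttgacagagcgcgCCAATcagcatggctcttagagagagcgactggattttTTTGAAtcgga
Bub1: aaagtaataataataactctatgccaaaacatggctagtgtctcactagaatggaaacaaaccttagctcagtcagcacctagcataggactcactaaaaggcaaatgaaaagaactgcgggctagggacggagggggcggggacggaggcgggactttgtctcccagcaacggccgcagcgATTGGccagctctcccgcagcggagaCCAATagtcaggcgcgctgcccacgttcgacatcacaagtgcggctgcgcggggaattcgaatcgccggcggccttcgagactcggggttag
The second group holds Bub1b (chr2:118597961-118598260, plus strand) and Ncaph (chr2:127133905-127134204, minus strand), the genes with the highest ratios.
Bub1b: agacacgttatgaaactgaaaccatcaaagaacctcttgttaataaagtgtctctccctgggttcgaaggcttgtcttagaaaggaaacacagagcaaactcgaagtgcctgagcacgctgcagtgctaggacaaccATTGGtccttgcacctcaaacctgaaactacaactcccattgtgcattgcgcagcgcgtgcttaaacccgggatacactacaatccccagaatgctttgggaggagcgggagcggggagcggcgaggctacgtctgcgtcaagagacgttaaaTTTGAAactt
Ncaph: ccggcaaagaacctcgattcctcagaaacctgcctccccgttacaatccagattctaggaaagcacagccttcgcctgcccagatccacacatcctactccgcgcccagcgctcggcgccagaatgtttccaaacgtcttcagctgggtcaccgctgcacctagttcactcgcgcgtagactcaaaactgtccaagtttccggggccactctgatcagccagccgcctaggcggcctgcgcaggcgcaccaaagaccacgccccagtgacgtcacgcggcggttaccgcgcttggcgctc
The Plk1 and Spc25 windows have CCAAT boxes before the start and a CHR match after it, that of Plk1 beginning 30 bases and that of Spc25 24 bases past the start. Ect2 has 3 CCAAT boxes and 2 CHR matches. Bub1 has 2 CCAAT boxes and no TTTGAA, Bub1b 1 CCAAT box and 1 CHR match, and Ncaph none of the motifs. All 300 bases of the Plk1, Ect2 and Ncaph windows lay under the promoter peak, as did 276 of Spc25, 281 of Bub1 and 267 of Bub1b.

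Promoters of these genes were on the whole less accessible in the knockout library than in the control. Of the 39, 33 had a log2 ratio of knockout to control below 0, against 53.2% of all genes with a promoter peak, and the median was -0.20 against -0.02 over all genes. Below 0 were 27 of 39 with TMM scaling factors (46.0% of all genes) and 29 after centring on the median of all promoters. The ratio was taken from CPM, each peak's count scaled to the library's total count in peaks,, with 0.5 counts added per library. Summed over the 39 promoters the control had 9289 counts and the knockout 7731, a ratio of 0.869 (0.844 to 0.896). The differences were mostly small. Only Plk1 was at least 2-fold lower (percent of all genes: 2.29%) and none was at least 2-fold higher (2.03%), while 5 were at least 1.5-fold lower (7.27%) and 0 at least 1.5-fold higher (6.09%). The shares of all genes include weak peaks. Among peaks called in both libraries, as all 39 were, the same shares were 0.284%, 0.292%, 3.11% and 2.65%. The interval lay below a ratio of 1 for 15 of the 39 (16.9% of all genes) and above it for Ncaph alone (14.1%). The 5 genes past 1.5-fold were Plk1, Spc25, Ect2, Bub1 and Spc24, with Kif2c at a log2 ratio of -0.58 just short of that fold. In bulk tissue, fewer nuclei of dividing cells and less open promoters per nucleus cannot be told apart.

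**Figure D1:**
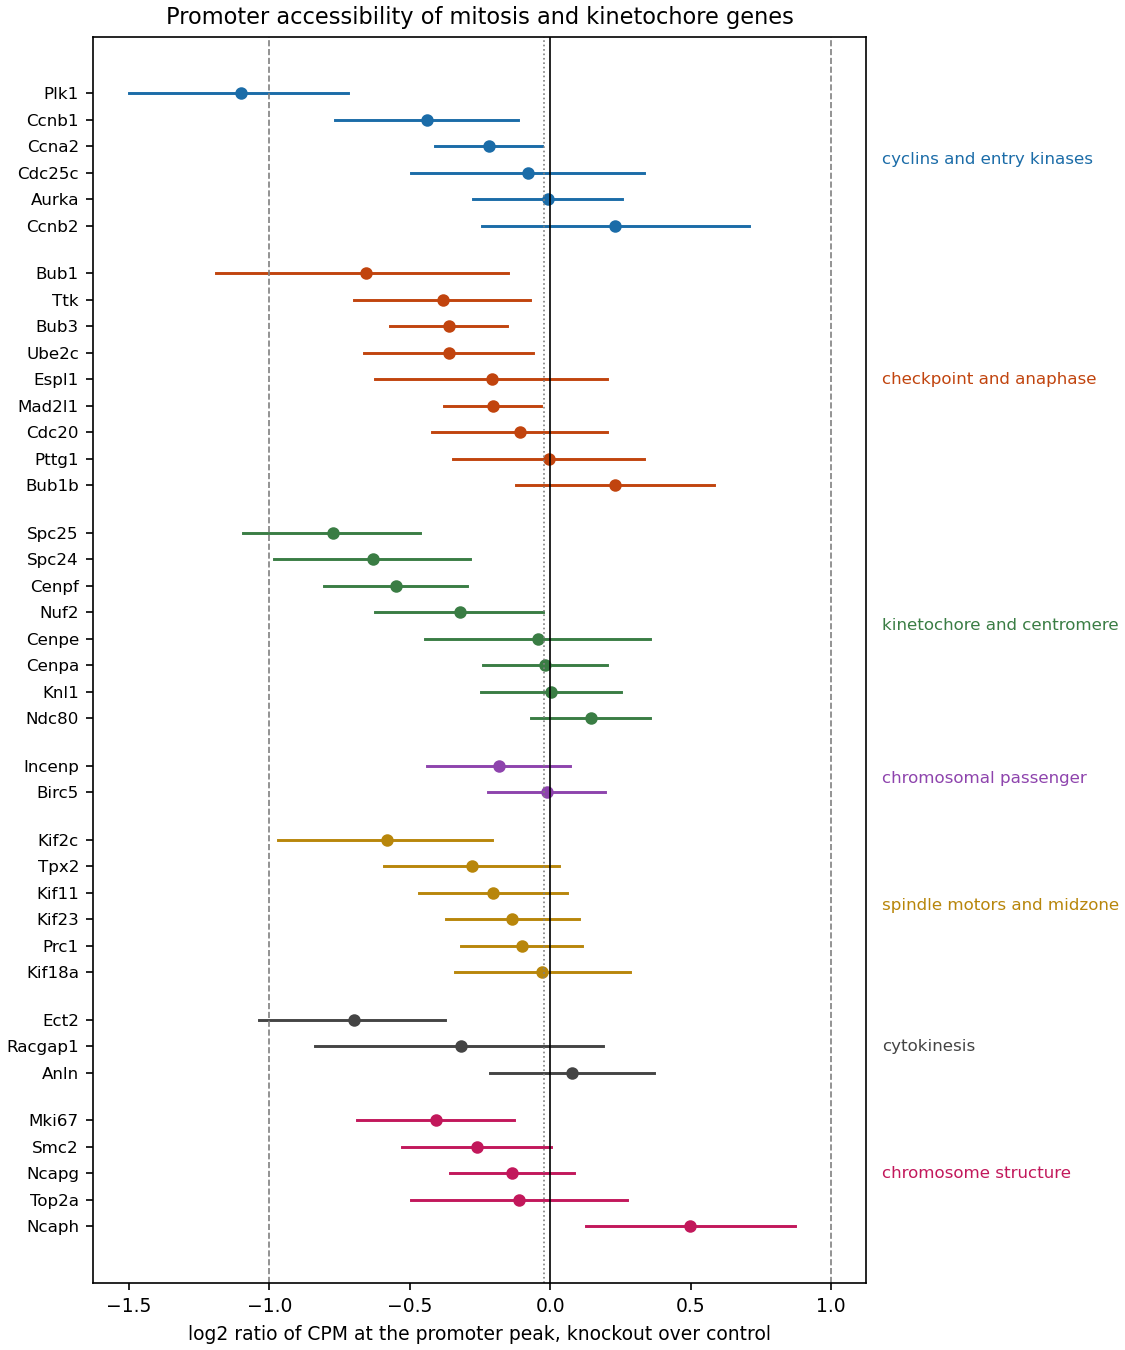
Log2 ratio of CPM at the strongest promoter peak (knockout over control, horizontal axis) for the 39 genes, grouped by role, with bars for the exact 95% counting interval. The solid line marks 0, the dotted line the median of all genes (-0.02) and the dashed lines 2-fold. Plk1 alone lies past 2-fold, and 33 of the 39 points lie left of 0.

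**Figure D2:**
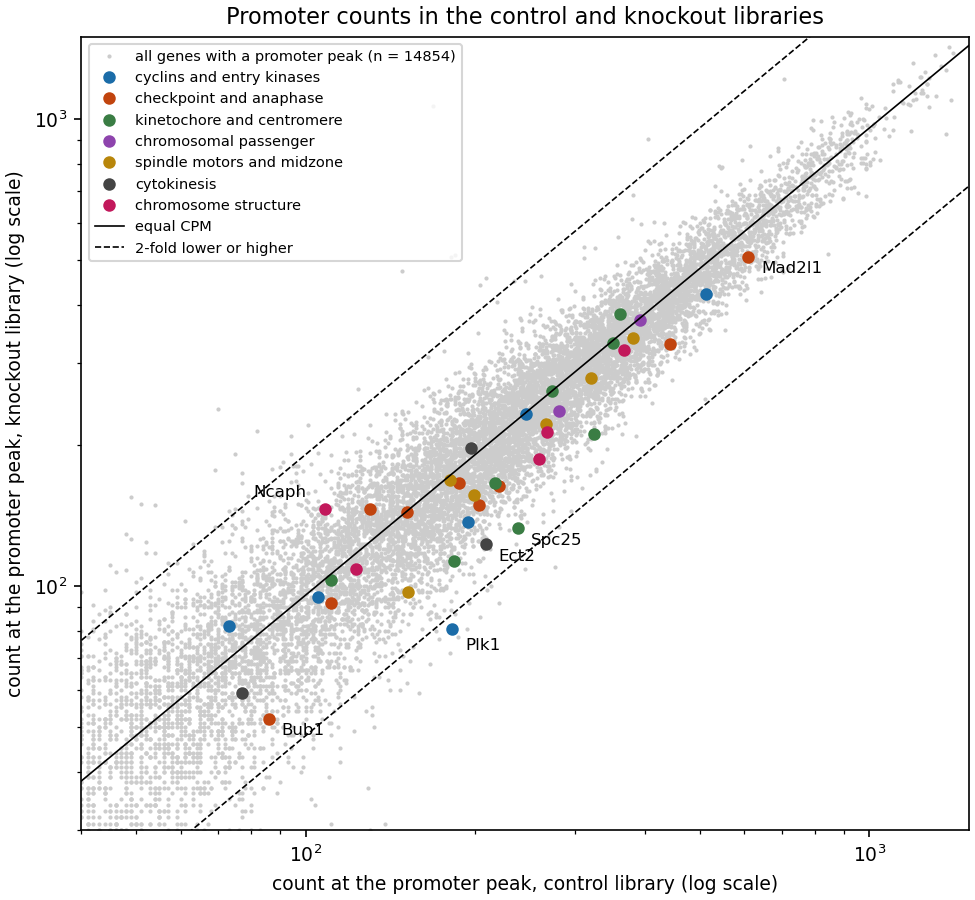
Count at the strongest promoter peak in the control (horizontal) and knockout (vertical) library, both on log axes, for all genes (grey, those within the axes) and for the 39 genes (coloured by role). Most coloured points lie below the solid line of equal CPM, and Plk1, with 182 and 81 counts, lies just under the dashed line for 2-fold lower.

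Values below 0 were not confined to weak peaks. When all genes were divided by promoter count into 5 equal parts, none of the 39 was in the lowest part and 11, 13, 9 and 6 were in the next ones. Below 0 were 8 of 11, 12 of 13, 8 of 9 and 5 of 6, where 54.4%, 54.5%, 52.4% and 51.7% of all genes in the same parts lay below 0. The genes past 1.5-fold, and Kif2c, were all in the parts spanning 136 to 447 counts over both libraries, and none was in the stronger parts. Over all genes with counts in the same range as the 39 (136 to 1117 over both libraries, 11049 genes), the median log2 ratio was -0.02. All 39 peaks had been called by the authors in both libraries, compared with 84.9% of the strongest promoter peaks of all genes. In the same range of counts the share was 97.0%, so the 39 were near that of genes with like signal. Their median width was 724 bp against 673 bp, and their median control level per length was 46.1 CPM per kb against 40.1.

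Among the cyclins and kinases of mitotic entry, 5 of 6 measured promoters were below 0 and the median log2 ratio was -0.15. For comparison with this and the following roles, 53.2% of all genes were below 0 and 16.9% had an interval below a ratio of 1. Plk1, the polo-like kinase that acts from mitotic entry to cytokinesis (ENSMUSG00000030867, chromosome 7, 122159002 to 122159540), had 182 control and 81 knockout counts (ratio 0.465, 0.353 to 0.607). This was the lowest of the 39, and 1.72% of all genes lay at or below it. Ccnb1, cyclin B1, had 194 and 137 counts (ratio 0.738, 0.588 to 0.923), whereas Ccnb2, cyclin B2, had 73 and 82 (1.17, 0.846 to 1.63). The B-type cyclin promoters thus lay on opposite sides of 1, with overlapping intervals. Ccna2, cyclin A2, which acts in S phase and at mitotic entry, was among the most open of the promoters, with 95.9 CPM per kb in the control, and had 512 and 421 counts (0.859, 0.753 to 0.979). Aurka, the Aurora kinase of the spindle poles, had 246 and 234 counts and a log2 ratio of -0.01, and Cdc25c, a phosphatase that activates the mitotic cyclin-dependent kinase, had 105 and 95 (-0.08).

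Of 9 checkpoint and anaphase genes, 8 were below 0, with a median of -0.21 and 5 intervals below a ratio of 1. Bub1, a checkpoint kinase at the kinetochore, was the lowest, at 86 control and 52 knockout counts (ratio 0.632, 0.439 to 0.902). Bub1b, which encodes its relative BubR1 in the mitotic checkpoint complex, was the highest of this role, with 130 and 146 (1.17, 0.920 to 1.5). These were the lowest and highest of 9 genes, with intervals for counting error only, and the difference between them was not tested. Bub1b was one of 6 genes above 0. Ttk, the checkpoint kinase Mps1, had 203 and 149 counts (log2 ratio -0.38), Bub3, the WD-repeat partner of Bub1 and BubR1, 443 and 330 (-0.36), and Mad2l1, the checkpoint protein Mad2, 610 and 507 (-0.20). All 3 intervals lay below a ratio of 1. Mad2l1 also had the most open promoter per length of the 39, at 108 CPM per kb in the control. Of the anaphase genes, Ube2c, the ubiquitin-conjugating enzyme of the anaphase-promoting complex, had 220 and 164 counts (ratio 0.779, 0.632 to 0.958). Cdc20, the activator of that complex, had 187 and 166 (-0.11), Pttg1, securin, 151 and 144 (-0.01), and Espl1, the protease separase, 111 and 92 (-0.21), all with intervals that held 1.

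Kinetochore and centromere genes ranged from lower to near-equal values. Of 8 promoters, 6 were below 0, the median was -0.18 and 4 intervals lay below a ratio of 1. Among the subunits of the Ndc80 complex, which binds microtubules directly, Spc25 had 238 and 133 counts (ratio 0.584, 0.469 to 0.725) and Spc24 183 and 113 (0.645, 0.506 to 0.820). Nuf2 had 217 and 166 (0.799, 0.649 to 0.983), while Ndc80 itself had 361 and 382 (1.11, 0.955 to 1.28). The 4 subunits of this complex thus ran from -0.77 to 0.14 on the log2 scale, and differences between them were not tested. Cenpf, a large protein of the outer kinetochore (chromosome 1, 189687791 to 189688524), had 324 and 212 counts (0.684, 0.572 to 0.815). Cenpa, the centromeric histone H3 variant, had 351 and 332 counts, Cenpe, a kinetochore motor, 111 and 103, and Knl1, the scaffold that recruits Bub1, 273 and 262. Their log2 ratios of -0.02, -0.04 and 0.0039 were close to the median of all genes.

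The chromosomal passenger complex, which corrects wrong attachments, had 2 measured promoters. Incenp, its scaffold, had 281 and 237 counts (-0.18) and Birc5, survivin, 392 and 372 (-0.01), and both intervals held a ratio of 1. Aurkb, its kinase, had no promoter peak. The table assigned it 3 distal peaks, at -4898, -4251 and -3695 bp from its start, with 422 and 418, 228 and 310, and 182 and 146 counts. The middle of these had a ratio of 1.42 (1.19 to 1.69), and the intervals of the others held 1.

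All 6 measured genes of spindle motors and the midzone were below 0, with a median of -0.17. Kif2c, a kinesin that takes microtubules apart at the centromere, was the lowest, with 152 and 97 counts (ratio 0.667, 0.511 to 0.866), and the only one of the 6 with an interval below 1. Tpx2, which nucleates spindle microtubules and activates Aurora A, had 199 and 157 counts (-0.28), and Kif11, the motor Eg5 that separates the spindle poles, 267 and 222 (-0.20). Kif23, a motor of the midzone, had 320 and 279 (-0.13), Prc1, which bundles midzone microtubules, 380 and 339 (-0.10), and Kif18a, which dampens chromosome oscillation, 180 and 169 (-0.03). The 6 values formed a graded series in which neighbours had overlapping intervals.

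Of the cytokinesis genes, Ect2, the exchange factor that activates RhoA at the cell equator, had 209 and 123 counts (chromosome 3, 27153551 to 27154210, ratio 0.615, 0.488 to 0.772). Racgap1, a subunit of centralspindlin, had 77 and 59 counts (0.8, 0.560 to 1.14), and Anln, the contractile ring scaffold anillin, had 196 and 198 (1.06, 0.862 to 1.29). Ect2 and Anln were the lowest and highest of this role, and the difference between them was not tested. Among genes of chromosome structure, Mki67, whose product Ki-67 coats mitotic chromosomes, had 259 and 187 counts (0.754, 0.622 to 0.914). Top2a, the topoisomerase that untangles sister chromatids, had 123 and 109 (-0.11). Condensin subunits differed among themselves, with Smc2 at 268 and 214 counts (-0.26), Ncapg at 367 and 320 (-0.13) and Ncaph at 108 and 146. Ncaph had the highest ratio of the 39, at 1.41 (1.09 to 1.83), and its control level of 22.1 CPM per kb was the lowest of them.

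Of the 6 genes with no promoter peak of their own, 5 had a promoter peak within 500 bp of 1 end of the gene that the table assigns to another identifier. For 4 of them this was a neighbour, with Kif4 beside Pdzd11, Kif20a beside Brd8, Smc4 beside Ift80 and Ncapd2 beside Mrpl51, and these peaks are not counted above. The peak between Kif4, a chromosome-bound kinesin, and Pdzd11 had 123 and 73 counts (ratio 0.620, 0.458 to 0.835). Those beside Kif20a, a midzone kinesin (324 and 308), and the condensin genes Smc4 (527 and 525) and Ncapd2 (547 and 469) had log2 ratios of -0.01, 0.06 and -0.16. The peak at the start of Cdc25b, another activating phosphatase, was assigned to an identifier without a symbol match (ENSMUSG00000027329) and had 172 and 185 counts (0.17). All of these intervals but that of Kif4 held 1. Which of 2 neighbouring genes such a peak belongs to cannot be read from the counts.

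Few of the genes had peaks other than the strongest promoter peak. The table held 18 further peaks of 11 of the listed genes, the 3 distal peaks of Aurkb among them, with 6 below 0 and a median log2 ratio of 0.06. Of the 39 genes, 10 had 15 such peaks, with 5 below 0 and a median of 0.06, and without the 4 peaks of Spc24 5 of 11 were below 0 with a median of 0.03. Over all 43222 peaks that were not the strongest promoter peak of a gene, 54.4% were below 0 and the median was -0.08. The other 29 of the 39 genes had no further peak. These peaks were weaker, with medians of 70.5 and 71 counts, and 7 of the 18 had been called in 1 library alone. A peak in an intron of Nuf2 had 27 and 64 counts (ratio 2.48, 1.56 to 4.04) and a second promoter peak of Espl1 22 and 44 (2.09, 1.23 to 3.66), both called in the knockout alone. This Espl1 peak (chromosome 15, 102316195 to 102316481) lay at another start than the main one (102296024 to 102296586). An intron peak of Racgap1 (chromosome 15, 99644813 to 99645012) had 32 and 4 counts (0.131, 0.0336 to 0.368) and was called in the control alone. Its listed distance of -4996 bp refers to another start than that under the promoter peak (99651479 to 99651806). Of all peaks outside promoters, 12.0% were at least 2-fold lower and 7.79% at least 2-fold higher. All 4 further peaks assigned to Spc24, 2 downstream of it and 2 upstream in an annotated 3′ UTR, were above 0, with log2 ratios from 0.25 to 0.56, while its promoter was at -0.63. The strongest of these had 251 and 312 counts (1.30, 1.10 to 1.54). Second promoter peaks were also present at Cdc20 (57 and 57 counts), Cenpe (54 and 50) and Ncaph (79 and 78), each with a log2 ratio between -0.05 and 0.06, and a weak one at Cenpf (24 and 13, -0.80, called in the control alone). Those of Ncaph and Cenpf also lay at other starts than the main peak. The remaining peaks with at least 50 counts over both libraries were an upstream peak of Kif23 (140 and 132), distal peaks of Mki67 (46 and 45) and Cenpf (62 and 42) and a Cenpf intron peak (26 and 28), and their intervals held 1.

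The promoters were searched for motifs already known from promoters of such genes. The matches come from reference sequence and hold no information on the knockout. RefSeq promoter windows were found for 34 of the 39 genes (not for Ccna2, Cdc25c, Incenp, Spc24 or Tpx2). A CHR match was present in 25 of the 34 (73.5%), against 16.2% of 17491 windows of protein-coding genes, and a CCAAT box in 24 (70.6%) against 38.9%. Both were present in 21 (61.8%) against 6.53%. A CHR match began within 50 bases of the start in 22 of the 34, against 3.93% of all windows. The E2F letters were found in 2, Kif18a and Ncapg (5.88% against 2.51%). No matches of different motifs overlapped. The Kif2c window lay wholly outside its peak. Ratios by motif are given as a description, with no test. Genes with a CHR match had a median log2 ratio of -0.20 (n = 25) and those without -0.04 (n = 9). Those with a CCAAT box had -0.23 (n = 24) and those without -0.01 (n = 10). Over all genes with a window and a promoter peak the corresponding medians were -0.04 and -0.02 for CHR and -0.05 and -0.01 for CCAAT. The E2F letters went the other way among the 34, with -0.08 (n = 2) and without them -0.20 (n = 32). Over all genes the E2F medians were -0.07 and -0.02. Kif2c counts among the genes with a CHR match although its window lay outside its peak. Whether the motifs bear on the ratios was not tested. A match is a run of letters and not a measured binding site. Windows of the 34 genes had a median GC content of 59.0%, compared with 56.7% for all windows. The start of another gene in the RefSeq table lay under the peak of Aurka alone (Cstf1), 1 of 38 genes on chromosomes in that table, against 6.60% of all named genes.

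**Figure D3:**
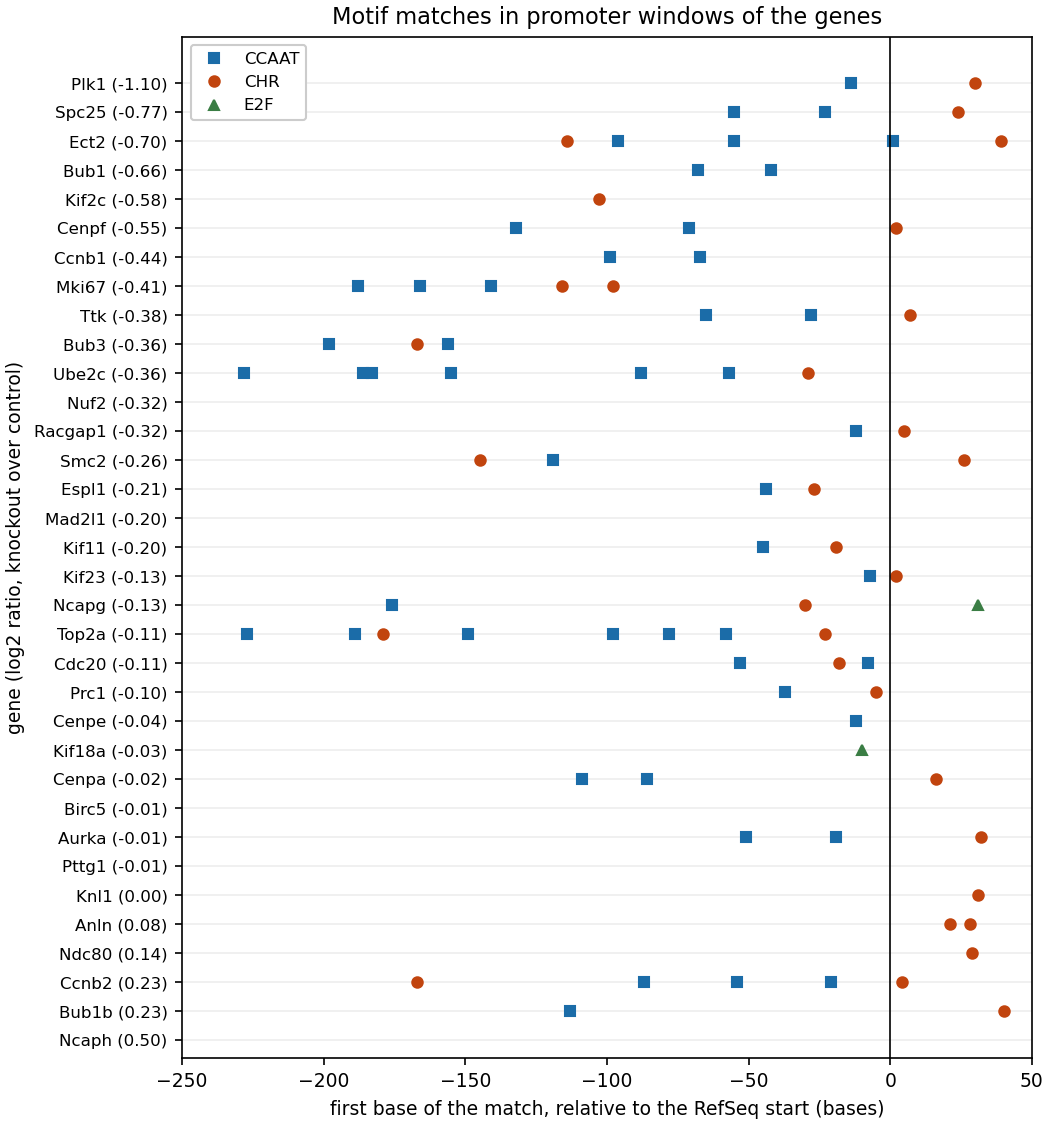
Position of motif matches in the promoter windows of 34 genes, in bases from the RefSeq start (horizontal), with genes ordered from the lowest (top) to the highest log2 ratio, given in brackets. CHR matches gather near the start, within 50 bases of it in 22 genes, and CCAAT boxes mostly lie before it. Rows without a point, such as Ncaph and Nuf2, hold none of the motifs.

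Other cell division lists also had medians below 0, but not all had lower summed counts. The median of all genes was itself below 0, at -0.02, with 53.2% of them below 0. Of 25 DNA replication genes with a promoter peak, 18 were below 0, with a median of -0.12 and a summed ratio of 0.915 (0.883 to 0.949). At least 1.5-fold lower were 2 and at least 1.5-fold higher 1, near the shares of all genes (7.27% and 6.09%). The lowest were Prim1 (70 and 40 counts, -0.74) and Pola1 (144 and 86, -0.68), subunits of the primase and polymerase alpha that start DNA strands. The highest were Fen1, a flap endonuclease (177 and 236, 0.48), and an identifier matched by position to the helicase subunit gene Mcm7. That identifier (ENSMUSG00000065514) had 40 and 66 counts (0.78, called in the knockout alone) and is the 1 value at least 1.5-fold higher. Whether its peak is a promoter of Mcm7 was not checked. Of 20 genes of G1/S control, 15 were below 0, with a median of -0.15 and a summed ratio of 0.878 (0.844 to 0.912), and 2 were at least 1.5-fold lower and 0 at least 1.5-fold higher (the same shares of all genes apply). E2f8 (287 and 160 counts, -0.78) and E2f7 (239 and 134, -0.77), which encode repressors of cell cycle genes, were the lowest. Ccnd2, cyclin D2 (100 and 113, 0.24), and Cdkn1a, the inhibitor p21 (186 and 254, 0.51), were the highest. Of 11 transcription factor genes that act on mitotic promoters, 7 were below 0 (63.6%, near the 53.2% of all genes), with a median of -0.11. The summed ratio of this list was 0.996 (0.951 to 1.04). Foxm1, the forkhead factor that binds with MuvB at CHR elements, had 41 and 17 counts (-1.18, called in the control alone), and Lin9, a MuvB subunit, 122 and 87 (-0.42). Lin37, another MuvB subunit, had 299 and 330 (0.21) and Rbl2, which encodes the DREAM pocket protein p130, 352 and 462 (0.45). Medians of these lists lay between that of the mitotic genes and that of all genes under the main settings, but with an earlier form of the name matching that of DNA replication was -0.22, below the mitotic genes' -0.20. No difference between the lists was tested.

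**Figure D4:**
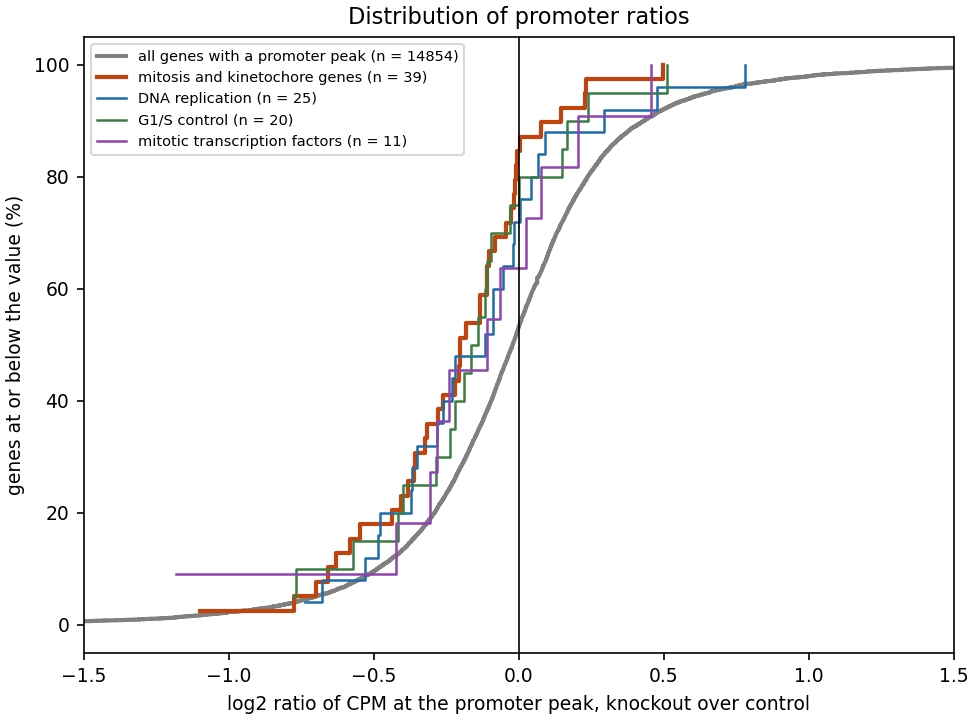
Cumulative share of genes (vertical, percent) at or below each log2 ratio of promoter CPM, knockout over control (horizontal), for all 14854 genes, the 39 mitosis and kinetochore genes and 3 other cell division lists. The curve of the 39 lies to the left of that of all genes over most of its range, and it meets 0 with 33 genes below it.

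Cell type markers also differed between the libraries. Over all genes, 53.2% of promoters were below 0 and the ratio of summed counts was 1.01. All 12 cardiomyocyte markers had a promoter peak, with 3647 and 3105 counts in sum (ratio 0.889, 0.848 to 0.933) and 7 of 12 below 0. Endothelial markers, all 10 with a peak, had 1305 and 1500 counts (1.2, 1.11 to 1.29) with 3 of 10 below 0. Fibroblast markers (7 of 9 with a peak) had 647 and 762 (1.23, 1.11 to 1.37) with 3 of 7 below 0, and mural cell markers (6 of 8) had 605 and 675 (1.17, 1.04 to 1.30) with 1 of 6 below 0. Myeloid markers had a promoter peak at 2 of 8 (Spi1 and Tyrobp, 70 and 42 counts), and none was matched to Ptprc, Csf1r or Adgre1. Erythroid markers had one at 2 of 6 (Klf1 and Epor, 210 and 221 counts), with none matched to Gata1, and lymphoid markers at 0 of 6. The summed ratio of the mitotic genes, 0.869, was thus below that of each non-myocyte list but the myeloid one, and near that of the cardiomyocyte markers. The part of cell composition in the values of the mitotic genes was not tested. The libraries held 6755590 (control) and 6466537 (knockout) counts in 58076 peaks.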

How the data were processed

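ATAC-seq libraries of heart nuclei (1 control, 1 knockout) were analysed from the table of 58076 merged peaks that the authors deposited. The deposited counts are raw whole numbers per peak, per the file headers. The deposited RPM values equal (count + 1) times a constant per library, 0.01965 for control and 0.01822 for knockout, and the deposited log2 fold change is the log2 ratio of these RPM values. The authors' fold enrichment ratio was not used. BWA, MACS2 and GRCm38.p6 are named in the submitters' processing notes; how reads were filtered, deduplicated or shifted for Tn5 was not given in the sources used here.

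Depth was 6755590 and 6466537 counts in peaks. Log2 ratios were taken from CPM over peaks with 0.5 counts added, and intervals from scipy 1.17.1. Since 1 library per group allows no test, 2-fold and 1.5-fold were rules of size. The table holds Ensembl identifiers without symbols. Of 24480, 14496 (59.2%) were matched to protein-coding genes of RefSeq (GRCm38.p6) by overlap over union of at least 0.5 and 2 times the next, by starts within 1 kb, or by lying inside a gene, with strand where known. The last conditions were added after values had been seen. The counting intervals and log2 ratios were first tested on simulated counts, and the choice of the strongest peak on the deposited counts. Gene naming, the motif search and the alternative scalings were not tested in this way.

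The genes and lists were chosen with earlier results of these data known. Every listed gene is named, with intervals for those past 1.5-fold and the extremes of each role; intervals for other genes were added after their values were seen. Further peaks are named from 50 counts or 2-fold, and other lists by their 2 lowest and 2 highest genes. Alternatives were the RPM scale, TMM (edgeR 4.0.16), centring, a loess trend (statsmodels 0.14.6, span 0.3), a pseudocount of 5, the sum over promoter peaks, promoters within 3 kb, at least 100 counts, peaks called in both libraries, and stricter or earlier name matching.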

Additional observations from a re-analysis of the deposited data

How the results depend on the processing

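The median log2 ratio of the 39 genes, -0.20, was -0.37 on the authors' RPM scale, where the median of all genes was -0.19, and -0.15 with TMM factors, where it was 0.03. Relative to all genes it was -0.18 after centring. The median stayed between -0.20 and -0.18 under each other alternative run. Below 0 were 36 of 39 on the RPM scale (74.4% of all genes) and 27 with TMM factors (46.0%), where Aurka, Birc5, Cenpa, Cenpe, Kif18a and Pttg1 lay just above 0. At least 1.5-fold lower were 8 on the RPM scale (12.7% of all genes). The log2 ratio of the summed counts was -0.20, and -0.37 on the RPM scale. Medians of the other lists on the RPM scale were -0.29 for DNA replication, -0.32 for G1/S control and -0.28 for mitotic transcription factors. The DNA replication median was -0.063 with TMM factors and -0.22 over 23 genes when names were matched by overlap and start alone, without strand; both were chosen after seeing the data. On the sense strand alone 0 of 34 windows held the E2F letters and 10 held both CHR and CCAAT (2.14% of all windows). None of 386 alternative values of single promoters left its counting interval. With promoters within 3 kb, at least 100 counts, peaks called in both libraries or stricter name matching, each promoter still measured kept its main value. Those settings therefore could not show a shift of single promoters. All but stricter name matching also kept all 39 genes, so under them the median of the 39 and the role medians could not move either. All 70 alternative role medians were below 0, but 7 of them moved beyond the counting error of the role's summed counts. No paired analysis was possible because there is 1 library per genotype and no replicate number. Depth limits single genes, since at 86 and 52 counts (Bub1) the interval spans 0.439 to 0.902.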
